A study of Mus musculus with 4 samples.

Results

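The NRF2 antioxidant programme was described through 34 genes, of 28663 named genes and transcripts on the array. They were chosen by name, as the probes whose gene name in the scanner files is one of the 34, and all 34 were found, on 45 probes. Of these genes, 26 had 1 probe and 8 had several, and the brightest probe stood for a gene with several. Levels were read in bronchial epithelial cells of mice given ovalbumin (OVA), an egg protein used to model allergic asthma. The 4 groups were Pla2g3+/+ (wild type) control, Pla2g3+/+ antigen challenged, Pla2g3-/- control and Pla2g3-/- antigen challenged, with 1 array each of RNA pooled from 4 samples. Pla2g3 encodes group III phospholipase A2, which is released from cells and cuts fatty acids from membrane phospholipids. Per the labels, 10 µg OVA with 1.3 mg alum was injected on days 0 and 14, and mice breathed an aerosol of 1% OVA for 30 min daily on days 26, 27 and 28. Lungs were collected 3 h after exposure to the antigen. The sources used here do not give strain, sex, age, the deleted part of Pla2g3 or the treatment of control mice, and a challenge difference can include sensitisation. Each group had 1 array, so no difference below has a replicate check.

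NRF2, encoded by Nfe2l2, is a transcription factor that KEAP1 normally holds in the cytoplasm and hands to the proteasome. Oxidants and electrophiles modify KEAP1, NRF2 then enters the nucleus, pairs with small MAF proteins and binds antioxidant response elements near genes that make glutathione, keep thioredoxin reduced, supply NADPH, break down haem and store iron, and detoxify quinones and carbonyls. Airway epithelium is exposed to inhaled oxidants and to those released by leukocytes, and carries high levels of many of these enzymes.

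The regulatory letters that define the programme are shown first. The genes were chosen by name as members of the programme, and membership can itself rest on these letters. The share of genes that hold them is therefore a description and not independent support. The core of the antioxidant response element was searched as TGACNNNGC on both strands of the RefSeq windows (GRCm38.p6) from 250 bases before to 50 after each gene's start. Of the 34 genes, 28 had a window, and 10 of the 28 (35.7%) held the core: Abcc4, G6pdx, Gclm, Me1, Nfe2l2, Pgd, Prdx1, Sod1, Srxn1 and Txnrd1. Of all 27025 genes with a window, 14.0% held it. The exact letters TGACTCAGC, a form that also holds an AP-1 site, stood in 2 of the 28 (Me1 and Prdx1) and in 0.503% of all genes. The AP-1 letters TGANTCA, which can overlap the core, stood in 4 of the 28 (Me1, Osgin1, Prdx1 and Srxn1) and in 8.97% of all genes. A match describes these letters only, and elements farther from the start lie outside the windows. Gclc, Gsr, Prdx6, Hmox1, Sod3 and Abcc1 had no entry. The 6 stretches below, 5′ to 3′ on the gene's strand, show the letters in genes of glutathione synthesis, thioredoxin repair and NADPH supply, whose values follow below, with the core in capitals. For Txnrd1, Gclm, Prdx1 and G6pdx the capitals are the core read on the opposite strand, and for Srxn1 they are 2 copies of the AP-1 letters.
Txnrd1, chr10:82859084-82859152, + strand: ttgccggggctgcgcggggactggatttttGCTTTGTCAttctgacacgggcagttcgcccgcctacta
Gclm, chr3:122245393-122245461, + strand: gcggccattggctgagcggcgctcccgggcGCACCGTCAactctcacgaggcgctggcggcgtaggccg
Prdx1, chr4:116685436-116685504, + strand: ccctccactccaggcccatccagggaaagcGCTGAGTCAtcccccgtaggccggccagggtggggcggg
Me1, chr9:86695912-86695950, - strand: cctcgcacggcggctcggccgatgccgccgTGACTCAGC
G6pdx, chrX:74428899-74428967, - strand: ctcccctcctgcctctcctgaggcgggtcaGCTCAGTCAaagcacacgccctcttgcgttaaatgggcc
Srxn1, chr2:152105392-152105515, + strand: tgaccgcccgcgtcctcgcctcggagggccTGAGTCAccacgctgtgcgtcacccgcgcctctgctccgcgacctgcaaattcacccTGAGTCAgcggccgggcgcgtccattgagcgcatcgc
Counted from the annotated start, the match begins at position −6 in Me1, −57 in G6pdx, −92 in Txnrd1, −133 in Prdx1 and −134 in Gclm. The 2 copies in Srxn1 begin at −102 and −45. The core matches of Pgd and Srxn1 lie after the start and are not printed.

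The arrays as a whole limit what follows. The share of probes well above background was 78.7% to 81.5% per array, and the 75th percentile of signal ranged from 1808 to 1986 intensity units. A level is the log2 processed signal minus that percentile of the same array, and a difference of levels of 0.58 is 1.5-fold, the size counted below. The median SD of a difference over the probes of 1 gene was 0.09 in each of the 4 comparisons, with a 95th percentile of 0.43 to 0.58, and the error that the scanner software gives a difference was 0.20 for a bright spot. These errors cover probes and spots, not mice or pools. Pla2g3 went against its labels: the signal of its brightest probe was 239 (control) and 254 (challenged) in wild type and 2023 and 4154 in cells labelled Pla2g3-/-, and whether it lies in the deleted part is unknown. Every genotype direction therefore rests on the labels as given. All 13 epithelial markers, among them Epcam and Cdh1, were well above background on each array, none of them differed by 1.5-fold in any comparison, and the 8 club cell and secretory markers did not either. Single markers of other epithelial lists did. Basal Krt14 differed by 0.92 and 1.43 with challenge in the 2 genotypes, while the 4 basal markers had medians of −0.014 and 0.02. Of 8 alveolar markers, 2 were at least 1.5-fold higher and 2 lower in wild type, with 2 and 1 in cells labelled Pla2g3-/-. Sftpb differed by −0.75 and −1.32, Napsa by −0.81 and 1.15, Slc34a2 by 0.94 and 1.20, and Sftpc by 0.67 and 0.45. The 8 had medians of 0.17 and 0.15, with 6 of 8 above 0 in each genotype. Among 8 ciliated markers, 2 were at least 1.5-fold lower on the control array labelled Pla2g3-/- (list median −0.36). Ciliated Spag6 was well above background on both control arrays and on neither challenged array. Of the 7 other ciliated markers, 0 reached 1.5-fold with challenge. The part of these cells in the results below was not tested. Leukocyte genes were present and differed between arrays: 12 T cell and thymocyte markers had a median level of 1.28 on the control array labelled Pla2g3-/- against −3.06 to −2.22 on the other 3. In pooled cells, fewer cells of a type and less RNA per cell cannot be told apart.

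All 34 genes were well above background on all 4 arrays, and 30 of them lay above the 75th percentile on each array, against 25.8% of all named genes. Nqo1, Gpx3, Sod3 and Slc7a11 lay below it on each array. Levels of different probes cannot be set against each other, so each gene is compared below only with itself. Values on the 4 arrays are given in the order wild-type control, wild-type challenged, labelled Pla2g3-/- control, labelled Pla2g3-/- challenged.

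**Figure D1:**
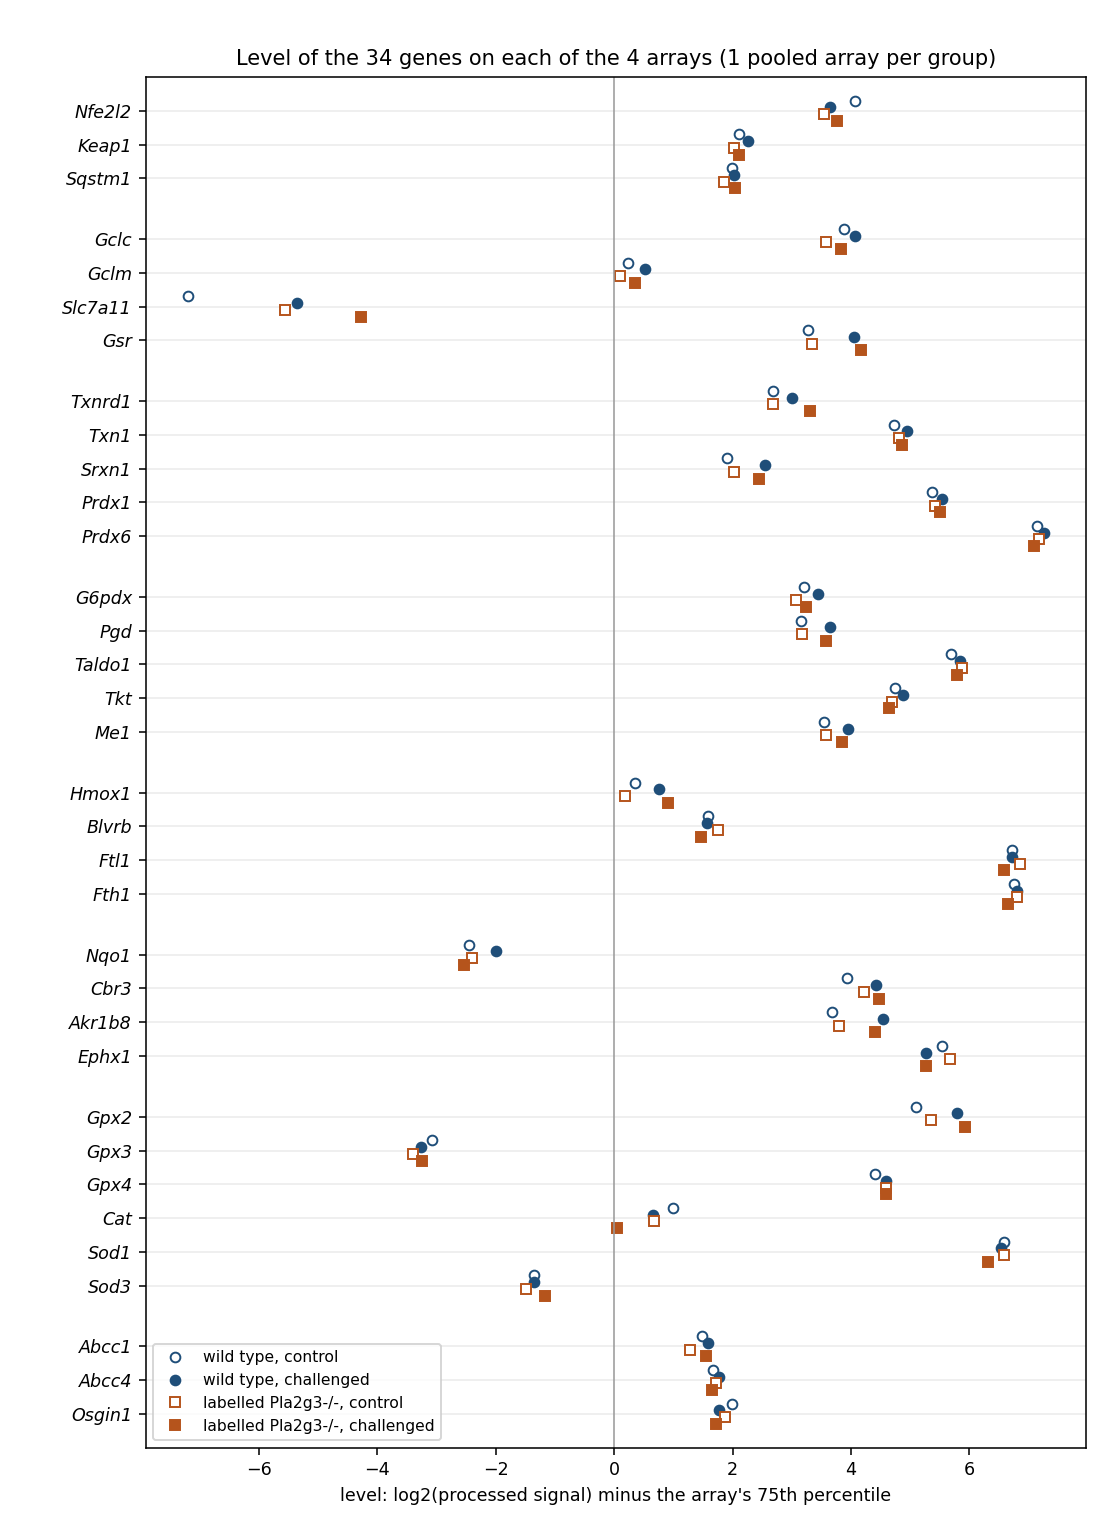
Level of each of the 34 genes (log2 processed signal minus the array's 75th percentile, brightest probe) on the 4 arrays, grouped by role; circles are wild type and squares labelled Pla2g3-/-, open symbols control and filled symbols challenged. Of the 34 genes, 30 lie right of the 75th percentile on all 4 arrays, and the filled symbols of Gsr, Akr1b8, Gpx2 and Srxn1 lie clear of the open ones; positions of different genes reflect their probes and are not comparable.

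The first question was what allergen challenge did to the programme in each genotype. The glutathione reductase gene Gsr, the aldo-keto reductase gene Akr1b8 and the cystine transporter gene Slc7a11 were at least 1.5-fold higher with challenge in both genotypes. Slc7a11 was close to background. Against the control array of the other genotype label its wild-type difference was 0.20, under 1.5-fold. In wild-type cells 5 of 34 genes (Slc7a11, Akr1b8, Gsr, Gpx2 and Srxn1) were at least 1.5-fold higher and 0 lower, where 3.6% and 4.27% of 23070 genes measured were so. In cells labelled Pla2g3-/- 5 of 34 (Slc7a11, Gsr, Hmox1, Txnrd1 and Akr1b8) were higher and 1 (Cat) lower, where 6.46% and 8.82% of 22445 genes were so. The median difference of the 34 genes was 0.15 and 0.16, in the same order, with −0.027 and −0.056 over all genes. At 2-fold, 1 of 34 (Slc7a11) was higher and 0 were lower in each genotype, where 1.15% and 1.13% of all genes were so in wild type, and 2.96% and 2.72% after challenge of cells labelled Pla2g3-/-.

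The genes are brighter than most on the array, and bright genes differed less. Among 7860 genes with a mean level at or above the 75th percentile, 1.76% were at least 1.5-fold higher and 0.751% lower in wild type, and 3.84% and 4.25% in cells labelled Pla2g3-/-. Differences were above 0 for 26 of the 34 genes in wild type, against 45.2% of all genes and 52.9% of the bright ones. In cells labelled Pla2g3-/- they were above 0 for 22, against 42.6% and 43.4%. At least 1.5-fold higher in both genotypes were 3 of 34, against 1.75% of the 22232 genes measured on all 4 arrays and 1.27% of the bright ones. At least 1.5-fold lower in both were 0, against 1.58% and 0.445%. For 17 of 34 both challenged arrays lay above both control arrays (18.4% of all and 25.1% of bright genes), and for 6 both lay below (26.4% and 28.6%). With a gap of over 0.2 between the pairs, 10 genes lay above (5.63% and 6.48%): Akr1b8, Cbr3, Gpx2, Gsr, Hmox1, Me1, Pgd, Slc7a11, Srxn1 and Txnrd1. Ephx1 was the 1 gene below by over 0.2 (6.95% and 5.36%).

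**Figure D2:**
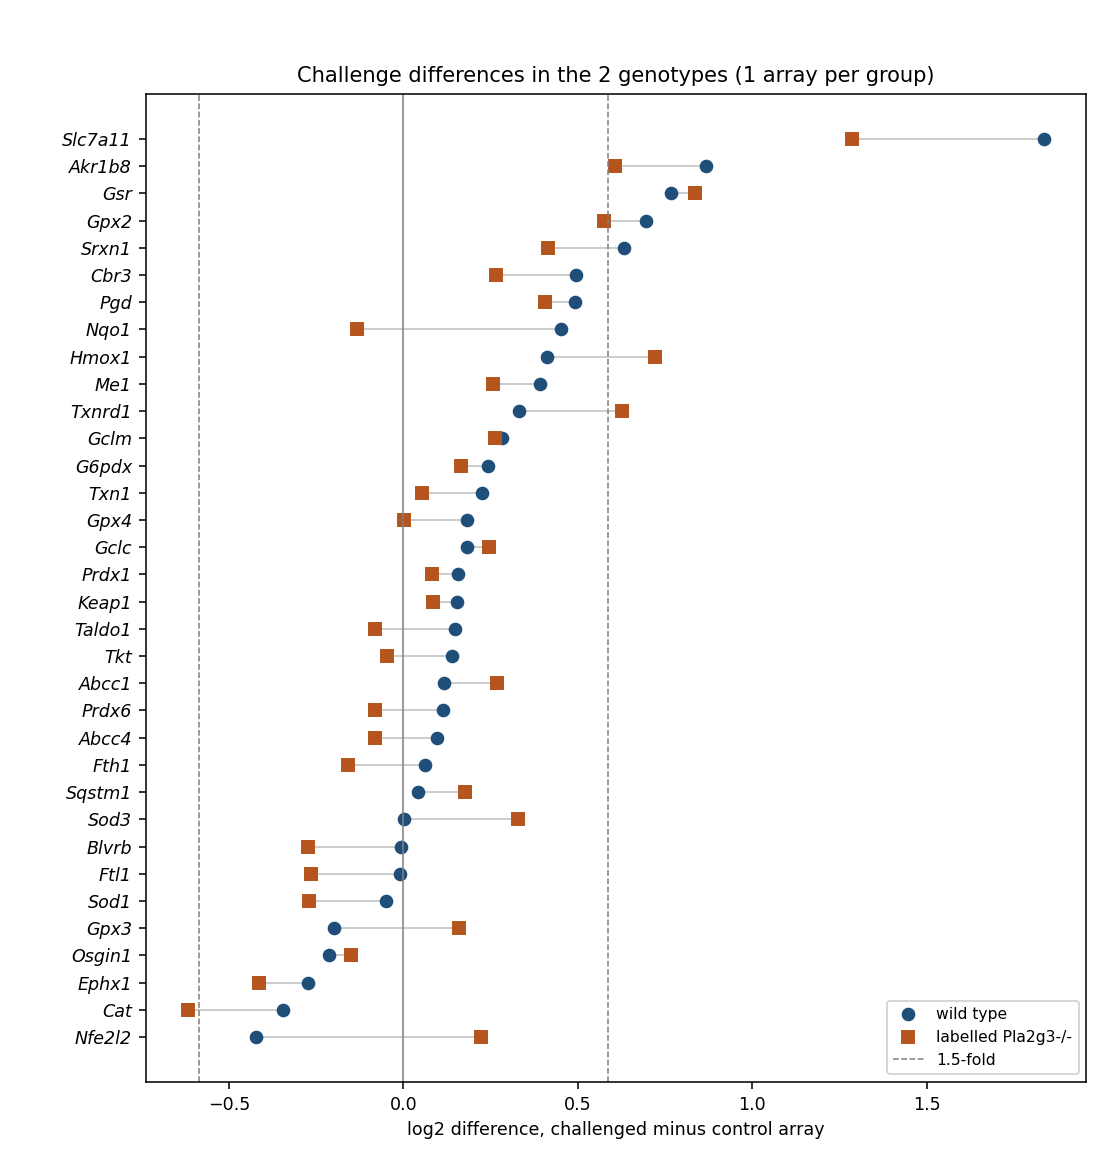
Log2 difference between the challenged and the control array for each of the 34 genes, in wild type (circles) and in cells labelled Pla2g3-/- (squares), ordered by the wild-type difference; dashed lines mark 1.5-fold. Slc7a11, Akr1b8 and Gsr lie right of the 1.5-fold line in both genotypes, Cat lies left of it in cells labelled Pla2g3-/-, and Nfe2l2 and Nqo1 lie on opposite sides of 0 in the 2 genotypes (for Nfe2l2 both sides turn with the other control array).

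The transcription factor gene itself differed by less than 1.5-fold with challenge in both genotypes. Nfe2l2 (probe on mm9 chromosome 2, 75513771 to 75513830, minus strand) had levels of 4.07, 3.65, 3.54 and 3.77. The wild-type control array was the highest, and the other 3 lay within 0.22 of each other. The challenge difference was −0.42 in wild type, and it was 0.22 in cells labelled Pla2g3-/-. Both directions depended on the control array used: against the other one the values were 0.11 and −0.31. The 6 B cell markers were likewise highest on the wild-type control array, with median levels of −1.04, −1.96, −2.16 and −2.39. They had a median challenge difference of −1.38 in wild type, with 5 of 6 at least 1.5-fold lower, and one of −1.26 between the control arrays, with 6 of 6 lower. The part of these cells in the differences of Nfe2l2 was not tested. Keap1, the adaptor that hands NRF2 to the ubiquitin ligase, had levels of 2.11, 2.26, 2.02 and 2.10, with differences of 0.15 and 0.09. Sqstm1, the autophagy receptor p62 that sequesters KEAP1 and is itself an NRF2 target, had 1.98, 2.02, 1.86 and 2.04, with 0.04 and 0.18. Keap1 and Sqstm1 were nearly level over the 4 arrays, and none of the 3 regulators reached 1.5-fold.

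Glutathione synthesis and recycling stood highest among the roles, with medians of 0.52 and 0.55 over 4 genes, each of them above 0 in both genotypes. Of these, Slc7a11 and Gsr reached 1.5-fold, and Gclc and Gclm did not. Enzymes that act on quinones, carbonyls and epoxides were close in wild type, with medians of 0.47 and 0.07. Gsr, which returns oxidised glutathione to its reduced form (mm9 chromosome 8, 34808488 to 34808547, plus strand), had levels of 3.28, 4.04, 3.34 and 4.18. Both challenged arrays lay 0.70 or more above both control arrays. The differences were 0.77 (1.70-fold) and 0.84 (1.79-fold). A second Gsr probe, at 34808413 to 34808472, gave 0.85 and 0.87, so the probes differed by less than 0.1.

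Slc7a11, the light chain of the cystine and glutamate exchanger that feeds cysteine into glutathione, had the largest difference of the 34 and the weakest signal. Its probe (mm9 chromosome 3, 50169700 to 50169759, minus strand) read 13.6, 44.1, 38.9 and 102 intensity units, which are levels of −7.19, −5.36, −5.56 and −4.27. The lowest level well above background on the wild-type control array was −7.71, close to its value there. Challenge differences were 1.84 (3.57-fold) and 1.29 (2.44-fold), with a scanner error of 0.30 for the first. Under normexp, another background correction, the values were 0.64 and 0.72, and with the control array of the other genotype label in place of its own they were 0.20 and 2.92. The wild-type difference thus depended on which control array was used. Neutrophil markers had the same order over the arrays, as given further on.

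Gclc and Gclm encode the catalytic and modifier subunits of the enzyme that starts glutathione synthesis. Gclc had levels of 3.88, 4.06, 3.58 and 3.83, and Gclm had 0.24, 0.52, 0.09 and 0.35. Challenge differences were 0.18 and 0.24 for Gclc and 0.28 and 0.26 for Gclm. Both were higher after challenge by less than 1.5-fold, and Gclc overlapped between control and challenged arrays, its second difference being −0.049 against the wild-type control array.

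Among thioredoxin and peroxiredoxin genes, the repair enzymes Txnrd1 and Srxn1 differed more with challenge than Txn1, Prdx1 and Prdx6 did. Txnrd1, thioredoxin reductase (mm9 chromosome 10, 82360230 to 82360289, plus strand), had levels of 2.68, 3.01, 2.68 and 3.30, with differences of 0.33 and 0.63. Srxn1, sulfiredoxin, which rescues over-oxidised peroxiredoxins (chromosome 2, 151937009 to 151937068, plus strand), had 1.91, 2.54, 2.03 and 2.44, with 0.63 and 0.42. In both genes the challenged pair lay above the control pair, by 0.33 and 0.42. The wild-type difference of Srxn1 missed 1.5-fold under normexp (0.57) and against the other control array (0.51). The remaining genes of this role were nearly level: Txn1 differed by 0.22 and 0.05, Prdx1 by 0.15 and 0.08, and Prdx6 by 0.11 and −0.081. Prdx6 had 4 probes, and the dimmest gave 0.46 and −0.54, while the other 3 gave at most 0.11 in wild type and −0.13 to −0.081 in cells labelled Pla2g3-/-. There the chosen probe was above 0 under normexp (0.060) and quantile normalization (0.072).

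NADPH supply, the source of reducing power for both systems, had medians of 0.24 and 0.16 over 5 genes, with 0 at 1.5-fold. Pgd, 6-phosphogluconate dehydrogenase, had levels of 3.16, 3.65, 3.17 and 3.57, and the challenged pair lay 0.41 above the control pair. Me1, cytosolic malic enzyme, had 3.55, 3.94, 3.58 and 3.84, with differences of 0.39 and 0.26. Its 3 probes gave 0.29 to 0.48 and 0.26 to 0.45, all above 0. The other oxidative enzyme of the pentose phosphate pathway, G6pdx, differed by 0.24 and 0.16. The non-oxidative enzymes Taldo1 (0.15 and −0.082) and Tkt (0.14 and −0.049) were both close to 0. Their values in cells labelled Pla2g3-/- were above 0 under normexp (0.11 and 0.034) and under quantile normalization (0.10 and 0.015).

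Haem and iron genes were mostly level, apart from Hmox1. Hmox1, haem oxygenase 1, which opens the haem ring (mm9 chromosome 8, 77624207 to 77624266, plus strand), had levels of 0.35, 0.76, 0.18 and 0.90. The challenged pair lay 0.41 above the control pair, and the differences were 0.41 (1.33-fold) and 0.72 (1.65-fold). A second probe gave 0.21 and 0.49. With the wild-type control array in place of its own, the difference in cells labelled Pla2g3-/- was 0.55, under 1.5-fold. Blvrb, which reduces biliverdin, differed by −0.0070 and −0.27, and the ferritin heavy chain gene Fth1 by 0.06 and −0.16. The ferritin light chain gene Ftl1 gave −0.011 and −0.26, and its second probe 0.21 and 0.04. The files place both Ftl1 probes on chromosome 17, whereas RefSeq lists the gene on chromosome 7, so a near-identical copy may share this signal and the gene is reported as uncertain.

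Among enzymes that act on quinones, carbonyls and epoxides, Akr1b8 and Cbr3 were higher on both challenged arrays and Ephx1 was lower. Akr1b8, an aldo-keto reductase (mm9 chromosome 6, 34318338 to 34318397, plus strand), was printed 10 times and had levels of 3.68, 4.55, 3.80 and 4.40. The SD over its spots was 0.05 to 0.07 per array, below its differences of 0.87 (1.82-fold) and 0.61 (1.52-fold). Cbr3, carbonyl reductase 3, had 3.93, 4.42, 4.21 and 4.48, with 0.50 and 0.27. Nqo1, the quinone reductase often used as a read-out of NRF2, was dim and had opposite signs in the 2 genotypes: its levels were −2.45, −2.00, −2.40 and −2.53, with differences of 0.45 and −0.13. Ephx1, microsomal epoxide hydrolase, had 5.54, 5.26, 5.67 and 5.26, and was lower after challenge by 0.27 or more for each pair of control and challenged arrays. Its differences were −0.27 and −0.41, and its second probe gave −0.41 and −0.46.

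Enzymes that remove peroxide and superoxide included a peroxidase that was higher with challenge and catalase, which was lower. Gpx2, the glutathione peroxidase of epithelia (mm9 chromosome 12, 77893402 to 77893461, minus strand), had levels of 5.09, 5.79, 5.35 and 5.93. The differences were 0.69 (1.62-fold) and 0.57 (1.49-fold), the second just short of 1.5-fold, and it passed under normexp (0.73) and quantile normalization (0.75). Against the other control array the wild-type difference was 0.43. Cat, catalase (chromosome 2, 103294487 to 103294546, minus strand), had 0.99, 0.65, 0.67 and 0.05, lowest on the challenged array labelled Pla2g3-/-. Its differences were −0.34 and −0.62, and a second probe gave −0.45 and −0.62. Against the other control array they were −0.022 and −0.94, so the wild-type difference depended on the control array used. Under normexp the second difference was −0.57, which is under 1.5-fold, so that the count there was 6 higher and 0 lower. Red cell markers were lower too: 9 and 8 of them were measured on both arrays, with median differences of −0.46 and −0.88, 3 and 7 at least 1.5-fold lower and 0 higher. The log2 of their summed scaled signal was 9.11 and 9.21 on the control arrays and 8.89 and 8.67 on the challenged arrays, and the haemoglobin genes were well above background on each. Red cells carry much catalase, and their part in the difference of Cat was not tested.

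The remaining enzymes of this kind differed little. Gpx4, the peroxidase for membrane lipid peroxides, differed by 0.18 and 0.00, and the plasma enzyme Gpx3 by −0.20 and 0.16. Cytosolic superoxide dismutase, Sod1, differed by −0.051 and −0.27, and the extracellular form Sod3 by 0.00 and 0.33. The glutathione-conjugate exporters Abcc1 (0.12 and 0.27) and Abcc4 (0.10 and −0.080) and the growth inhibitor gene Osgin1 (−0.21 and −0.15) all stayed under 1.5-fold.

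**Figure D3:**
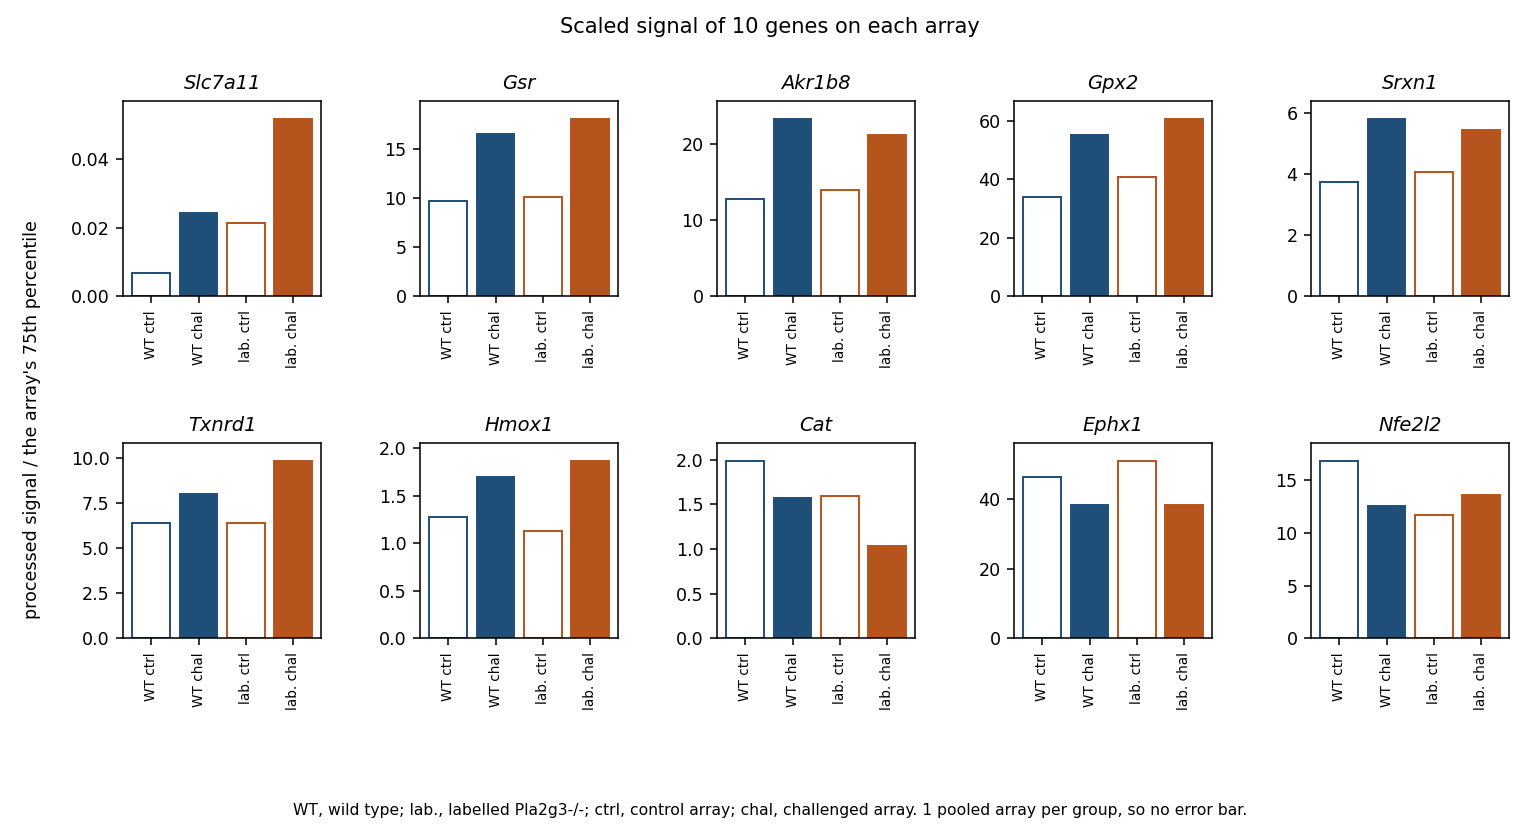
Scaled signal (processed signal divided by the array's 75th percentile, each panel on its own axis from 0) of 10 genes on each array, blue for wild type and orange for labelled Pla2g3-/-, open bars control and filled bars challenged, with 1 pooled array per group and no error bar. Both filled bars stand above both open bars for Slc7a11, Gsr, Akr1b8, Gpx2, Srxn1, Txnrd1 and Hmox1 and below them for Cat and Ephx1, while Nfe2l2 has its tallest bar for the wild-type control.

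The only test across arrays was an additive limma fit of challenge and genotype label over 22232 genes. It had 1 residual degree of freedom per gene, from how far the effects disagree between groups. It also drew each gene's error towards the variance of genes of similar level, weighted as 3.52 degrees of freedom. It called 5 genes (0.0225%) for challenge, and 0 of the 34 genes were among them. Gsr came nearest, with an average difference of 0.80 (SE 0.09, adjusted p = 0.126, limma). Akr1b8 (0.74, SE 0.11, adjusted p = 0.154), Slc7a11 (1.56, SE 0.23, adjusted p = 0.160) and Gpx2 (0.63, SE 0.10, adjusted p = 0.162) followed in the same fit. At an unadjusted p under 0.05 (limma) stood 13 of the 34 genes, 11 higher and 2 (Cat and Ephx1) lower, against 15.7% of all genes. The fit is small, and a missed threshold does not show that these genes were unchanged.

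Neutrophil markers were higher with challenge in both genotypes. The 8 neutrophil markers had median levels of −3.97, −2.15, −3.41 and −0.09, the same order over the 4 arrays as Slc7a11. The log2 of their summed scaled signal was 5.86 and 5.52 on the control arrays and 5.98 and 6.48 on the challenged arrays, and none was below background. Of the 8, 7 were at least 1.5-fold higher in each genotype, and the 10 macrophage markers had median differences of 0.03 and 0.71. In wild type 1 of them was at least 1.5-fold higher (Chil3, 2.48) and 2 lower (Marco, −2.01, and Mrc1, −0.60). Among cells labelled Pla2g3-/-, 5 of the 10 were higher with 0 lower. Other leukocyte markers mostly went the other way. Of 5 pan-leukocyte markers, 0 were at least 1.5-fold higher and 5 lower in wild type (median −0.68). The counts in cells labelled Pla2g3-/- were 1 and 3 (median −0.60). Of 12 T cell and thymocyte markers, 0 were higher in either genotype, with 6 lower in wild type (median −0.58). In cells labelled Pla2g3-/- 11 were lower (median −3.31). Gsr, Txnrd1, Hmox1 and Slc7a11 are also expressed by myeloid cells, and the part of these cells in their differences was not tested.

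Other genes of the pathway, listed by known function, were examined beside the 34. Of 14 regulators, 1 was at least 1.5-fold higher and 1 lower in wild type, and 2 were higher and 2 lower (Bach2 and Palb2) in cells labelled Pla2g3-/-. Over all genes 3.6% were higher and 4.27% lower in wild type, and 6.46% and 8.82% in the other genotype. Bach2, a repressor from the BACH family that competes for the same elements and is prominent in lymphocytes, differed by −0.93 and −1.06. Nfe2, the blood-cell relative of NRF2, was higher by 0.66 and 2.20. Its probe was dim, with 56.4, 81.2, 70.8 and 350 intensity units, and that of Palb2 read 43.4 to 67.1. Atf3, a stress-induced repressor, differed by −0.36 and 1.28. The small MAF partner Mafg differed by 0.28 and 0.34, and the ubiquitin ligase scaffold Cul3 by −0.21 and −0.084.

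Glutathione genes outside the 34 gave few calls in wild type. Of 15, 1 was higher in wild type (Chac1, which degrades glutathione, 1.13) and 4 in cells labelled Pla2g3-/- (Chac1 1.86, Glrx 0.84, Ggt1 0.71 and Slc3a2 0.63), and 0 were lower in either, where 3.6% and 6.46% of all genes were higher. The Ggt1 probe was dim, at 58.1 to 103 intensity units. Slc3a2 encodes the heavy chain that carries the Slc7a11 protein to the membrane, and its wild-type difference was 0.15. Glrx, glutaredoxin, which uses glutathione to reduce proteins, was 0.58 in wild type, and 13 of the 15 were above 0 there against 9 in cells labelled Pla2g3-/-. The 16 other thioredoxin and peroxiredoxin genes had medians of −0.030 and −0.19, with 0 higher and 1 and 2 lower, where 4.27% and 8.82% of all genes were lower. Txnip, which inhibits thioredoxin, differed by −0.78 and −0.42, the sestrins Sesn1 and Sesn3 by −0.95 and −0.85 in cells labelled Pla2g3-/-, and mitochondrial Sod2 was 0.42 and 0.30.

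A list of 30 further NRF2 target genes had lower medians than the 34. Gsta1 and Cyp2a5 were not found by name, and Abcc2 was not well above background. Of 27 measured, 2 were higher in wild type (Mt2 0.65 and Aox1 0.60) with a median of 0.02, and 1 was higher (Mt2 1.35) and 2 lower (Ptgr1 −0.69 and Entpd5 −0.68) in cells labelled Pla2g3-/-, with a median of −0.14. Above 0 were 18 of 27 in wild type and 7 of 27 in cells labelled Pla2g3-/-, against 45.2% and 42.6% of all genes. The abundant glutathione transferases Gsta3 (0.07 and −0.34) and Gstm1 (0.01 and −0.25) stayed under 1.5-fold. Genes of the ATF4 response to amino acid shortage, which also drives Slc7a11, had medians of 0.30 and 0.27. In wild type 5 of 16 were at least 1.5-fold higher and 0 lower (3.6% and 4.27% of all genes). Among cells labelled Pla2g3-/-, 5 of 16 were higher with 2 lower (6.46% and 8.82%). This list shares Chac1 and Slc3a2 with the glutathione list. Chac1 and Asns (0.92 and 0.62) were higher in both, while Phgdh differed by 0.65 and −0.63, and Ddit4, lower in both, was −0.39 and −1.02.

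The second question was how the programme differed between genotype labels without challenge. The 2 control arrays were close: the 34 genes had a median difference (labelled Pla2g3-/- minus wild type) of 0.031, with −0.024 over all genes, and 33 of 34 lay under 1.5-fold. Slc7a11 alone was at least 1.5-fold higher (1.64, 3.11-fold) and 0 were lower, where 5.78% and 4.79% of 22934 genes were so, and 2.15% and 1.54% of the bright ones. It was also past 2-fold, as were 2.59% of all genes upward and 1.28% downward. Of the 34 genes 21 were above 0, against 46.3% of all and 55.7% of bright genes; under normexp and under quantile normalization 14 were, and the median was then −0.025 and −0.043. Under normexp its difference was 0.51, under 1.5-fold. Nfe2l2 was lowest relative to wild type, with −0.53, and −0.59 under quantile normalization, which is past 1.5-fold. Gpx3 (−0.33), Cat (−0.32) and Gclc (−0.29) followed, and Cbr3 (0.28) and Gpx2 (0.26) were highest after Slc7a11. The T cell and thymocyte markers had a median difference of 3.87 between these arrays, with 11 of 12 at least 1.5-fold higher, and their part in the differences of the 34 genes was not tested.

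The third question, the one in the study's title, was the difference between genotype labels after challenge. The programme was close on the challenged arrays as well, with a median of −0.079 against −0.048 over all genes and −0.042 among genes with a mean level at or above the 75th percentile. Slc7a11 was higher (1.09, 2.12-fold) and Cat lower (−0.59, 0.662 of the wild-type signal), so 1 of 34 was at least 1.5-fold higher and 1 lower, where 6.75% and 5.78% of 22524 genes were so, and 2.12% and 2.05% of the bright ones. Slc7a11 was also past 2-fold, as were 3.02% of all genes upward and 1.72% downward. Neither passed under normexp (0.58 and −0.52), and Cat also missed 1.5-fold under quantile normalization (−0.58) and with the mean of its probes (−0.47). Nqo1 (−0.53) and Txnrd1 (0.30) were next. Of the 34 genes 11 were above 0, against 40.5% of all and 37.8% of bright genes, and the 5 NADPH supply genes lay between −0.24 and −0.046, with Taldo1 above 0 under normexp (0.038) and quantile normalization (0.024). Under quantile normalization and under normexp 14 of the 34 were above 0. Red cell markers had a median of −0.28 here with 3 of 8 lower, and neutrophil markers one of 1.88 with 7 of 8 higher.

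In the additive fit, 8 genes (0.036%) were called for the genotype label, 0 of them among the 34. Slc7a11 came nearest, with 1.36 (SE 0.23, adjusted p = 0.169, limma), followed by Cat with −0.46 (SE 0.11, adjusted p = 0.237). At an unadjusted p under 0.05 (limma) stood 3 of the 34 genes, Cat, Gclc and Slc7a11, against 12.5% of all genes.

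**Figure D4:**
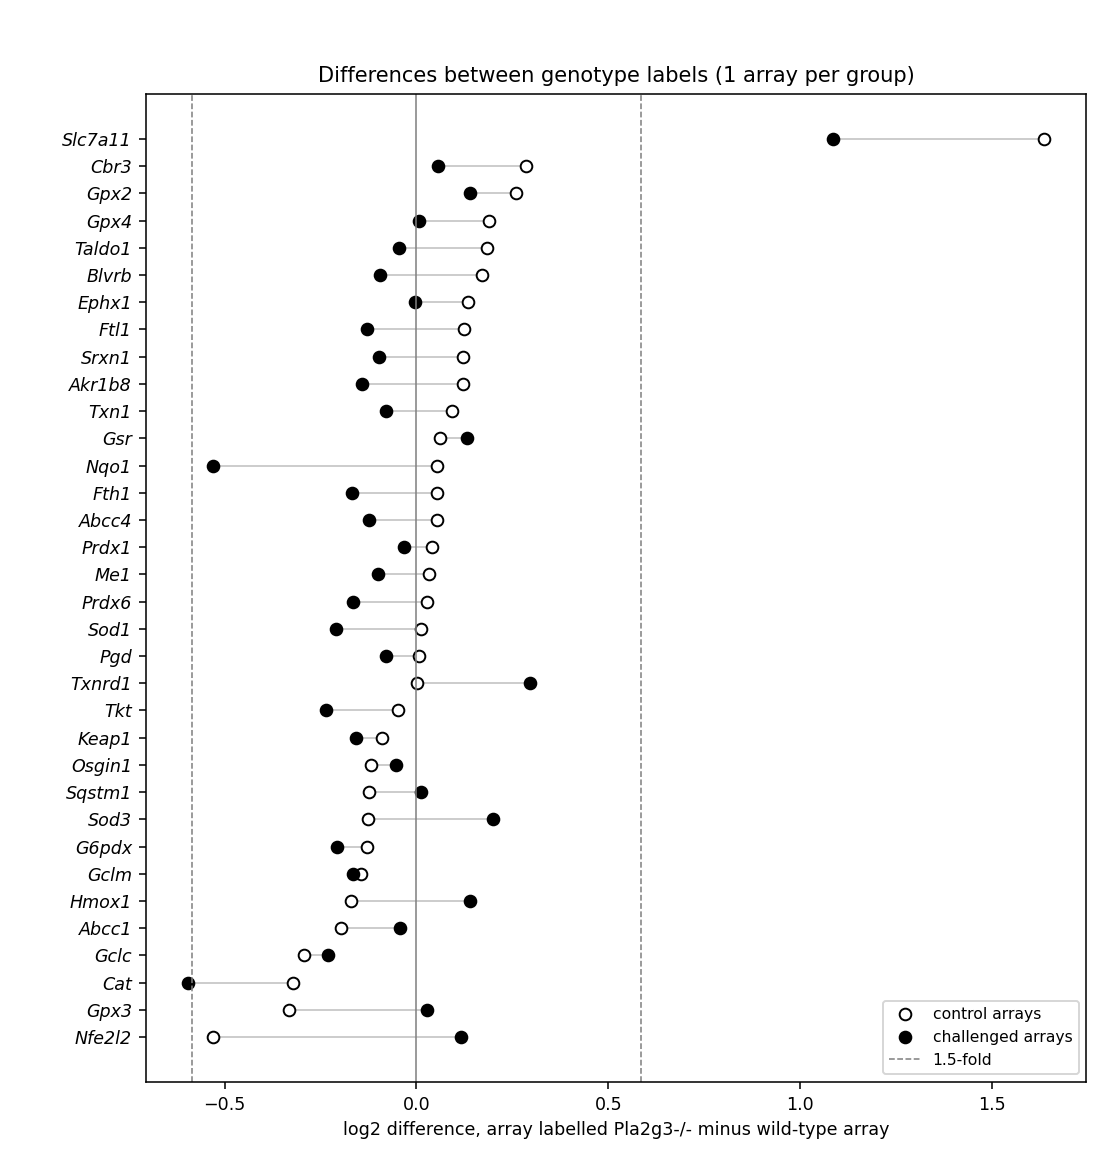
Log2 difference between the array labelled Pla2g3-/- and the wild-type array for each of the 34 genes, without challenge (open circles) and with challenge (filled circles), ordered by the difference without challenge; dashed lines mark 1.5-fold. Slc7a11 lies right of the 1.5-fold line in both conditions, Cat lies just left of it with challenge, and the other 32 genes lie between the lines.

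The challenge differences themselves were set side by side last. The gene furthest apart was Nfe2l2, 0.65 higher in cells labelled Pla2g3-/-, and the next were Nqo1 (−0.59) and Slc7a11 (−0.55). Txnrd1 and Hmox1 had larger differences in cells labelled Pla2g3-/- by 0.29 and 0.31, and Gsr differed between the genotypes by 0.07. Over all genes with several probes, the median SD between probes was 0.087 and 0.095 for a single challenge difference. The 95th percentile was 0.43 and 0.51. For genes with all probes above the 75th percentile the median was 0.042 and 0.040, but Nqo1, Slc7a11 and Hmox1 are not among these. The Hmox1 probes had SDs of 0.14 and 0.17. No test of the difference between genotypes is possible with 1 array per group.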

How the data were processed

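Gene expression was measured on 4 single-colour Agilent arrays, 1 per group, from 200 ng of pooled RNA each. Intensity values of every spot are in the deposited scanner files; per the file headers, the software was Agilent Feature Extraction 11.5.1.1, with spatial and multiplicative detrending of the background. Probes were placed on mm9, per the file headers. The value table deposited by the authors equals the processed intensity divided by the array's 75th percentile; its column medians were 0.0875, 0.0860, 0.0879 and 0.0850.

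Control spots and 128 to 155 outlier spots per array were left out, no spot was saturated, and spots of a probe were averaged. Of 39429 probes, 28330 matched a RefSeq accession (GRCm38.p6, used for names), 2462 had no name and 19 lacked a value. Levels were log2 signal minus the 75th percentile; genes not well above background on both arrays were left out of a comparison. Each comparison was 1 array minus another, and genes at least 1.5-fold apart were counted. The additive fit used limma 3.58.1 (R 4.3.3) with a trend and Benjamini-Hochberg adjustment at 0.05, and was tested on simulated data. Alternatives were normexp (offset 50) followed by quantile normalization, called normexp here, and quantile normalization alone. These share the quantile step and are not separate checks. Others were the mean of probes, a common filter, the deposited table, 2-fold and the other control array. Every one of the 34 genes was described; of the other pathway genes, up to 4 per list and comparison with the largest difference could be named. Mafg, Cul3, Gsta3 and Gstm1 were named for their function after their values were seen. The genes and lists were chosen with earlier results of these data known. The arrays lie on 1 slide, and slide position cannot be told apart from group. Exon and UTR positions of probes were not used here.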

Additional observations from a re-analysis of the deposited data

Results flagged for a closer look

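Challenge differences of opposite sign in the 2 genotypes drew attention to 8 of the 34 genes, each from 1 array per group, and the difference between genotypes was not tested. The differences below are the effect in cells labelled Pla2g3-/- minus that in wild type. Nfe2l2 stood at 0.646, going from −0.42 in wild type to 0.22. Gpx3, a dim probe, stood at 0.36. Nqo1 stood at −0.586, going from 0.45 to −0.13. Values for the other genes were −0.194 for Prdx6, −0.23 for Taldo1, −0.187 for Tkt, −0.221 for Fth1 and −0.177 for Abcc4. Each is close to the scanner's own error of 0.20 for a single difference. The error of a difference between differences, which these are, is larger still. The opposite signs of Prdx6, Taldo1 and Tkt were lost under normexp and under quantile normalization, where their values in cells labelled Pla2g3-/- were 0.060 and 0.072, 0.11 and 0.10, and 0.034 and 0.015. The normexp setting includes the quantile step, so these are not separate checks. Against the other control array both signs turned for Nfe2l2 (0.11 and −0.31), Gpx3 (0.13 and −0.17) and Taldo1 (−0.036 and 0.10).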

How the results depend on the processing

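Of 54 alternatives, 44 left the count within 1.5 times its main value or the median within the median SD between probes of a gene. None reversed a median of at least that size. The 44 include the common filter, which all 34 genes passed, and the deposited table, which holds the same scaled signal. Neither setting could change a value by much, so their share of the 44 is no evidence of stability. Counting 2-fold instead of 1.5-fold left 1 gene in wild type, 1 in cells labelled Pla2g3-/- and 1 between challenged arrays, Slc7a11 each time. The control array of the other genotype label gave a count of 2 of 34 in wild type, both higher (Akr1b8 and Gsr). There 6.34% of 22973 genes were higher and 7.59% lower, so the count of higher genes was not above the share of all genes. In cells labelled Pla2g3-/- the median was then 0.063, against −0.083 over all genes. Between control arrays normexp gave a count of 0, where 3.4% of all genes were higher and 1.83% lower. Quantile normalization gave 2, where 6% and 4.45% were so. Between challenged arrays normexp gave 0 (3.87% and 2.19%), quantile normalization 1 (7.22% and 5.17%) and the mean of probes 1 (6.95% and 5.84%). Single genes under 1.5-fold turned sign more often: with the other control array 4 wild-type differences did and 5 of those labelled Pla2g3-/-, and between control arrays 7 did under normexp and 7 under quantile normalization. Over all genes, the share of 1.5-fold calls that were higher moved with normexp from 45.7% to 58.5% (challenge, wild type), from 54.7% to 65% (control arrays) and from 53.9% to 63.9% (challenged arrays). In the limma fit 0 of 34 genes were called under each of 3 alternatives (no trend, normexp, no filter). For challenge, 10, 17 and 13 of the 34 had an unadjusted p under 0.05 (limma), against 13.1%, 15.5% and 14.1% of all genes. No paired analysis was possible because each group has 1 array. The number of arrays limits precision, and Slc7a11 is close to background.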
